A study of Homo sapiens with 24 samples.

Results

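The genes described here are the 3 protein-coding genes of the 9p21 locus (CDKN2A, CDKN2B and MTAP) and 6 genes of the retinoblastoma (RB) pathway elsewhere in the genome (CDKN2C, CDK4, CDK6, CCND1, CCND2 and RB1). They were found by their Ensembl identifiers in the table of all samples and make up 9 of its 43037 genes. All 9 were in the table. Capped RNA 5′ ends were counted by cap analysis of gene expression (CAGE-seq), which gives a tag for each capped end it reads, so that levels in tags per 1000000 (CPM) of different genes can be compared without a length correction.

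The samples were 24 libraries of 4 established lines from glioblastoma (GBM), namely DBTRG-05MG, T98G, U87MG and U251MG, with 3 libraries in each of 8 groups. In each line, the “WWOX” variant carried WWOX, an oxidoreductase with WW domains regarded as a tumor suppressor, under the CMV promoter of a lentiviral vector (pLenti-GIII-CMV-GFP-2A-Puro), and the “Vec” variant carried a blank puromycin-resistance lentivirus. All variants were transduced at a multiplicity of infection of 1.5 and selected with 1 µg/mL puromycin from 72 h on, so that “Vec” and “WWOX” of a line were separately selected populations as well as differing in WWOX. T98G was grown in MEM, DBTRG-05MG in RPMI, and U251MG and U87MG in EMEM, so that medium and line cannot be told apart. The study's methods call the 3 libraries of a group biological replicates, while the labels do not say whether separate cultures were used, and p-values measure the spread between these libraries.

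The RB protein holds E2F transcription factors inactive and so keeps cells in G1. Cyclin D bound to CDK4 or CDK6 phosphorylates RB and releases E2F, and the INK4 proteins, encoded by CDKN2A, CDKN2B, CDKN2C and CDKN2D, inhibit CDK4 and CDK6. CDKN2A has a pair of starts. The proximal start gives the INK4 protein p16, and the distal start gives ARF, which inhibits MDM2. MTAP, next to CDKN2A, encodes the phosphorylase that returns methylthioadenosine to methionine salvage and is often lost together with CDKN2A when 9p21 is deleted, which is common in GBM.

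Each library held between 10756072 and 16953689 tags, so that a count of 0 allows up to 0.279 CPM in the shallowest and 0.177 CPM in the deepest library (3 tags; this covers counting error only). WWOX itself was at 37.9 ± 3.48 CPM in “Vec” and 62.7 ± 2.79 CPM in “WWOX” libraries of U87MG (SD, n = 3), and its differences in T98G, U251MG and DBTRG-05MG were 0.38, −0.01 and 0.39 on the log2 scale, with no adjusted p under 0.05 (limma; 0.136 in U87MG). Transcripts from the CMV promoter start in the vector, and whether their tags counted for WWOX is not given in the sources used here. The study reports that Western blot of extracted protein showed the transduction to be efficient, and these RNA values do not measure that protein. The library labelled U251MG “WWOX” replicate 2 held 17.4 CPM of WWOX, below the 31.4 to 36.8 CPM of the 3 U251MG “Vec” libraries. The 3 libraries labelled U251MG “WWOX” also agreed least with each other, with mean correlations across the 12327 genes tested of 0.904 to 0.930 against 0.949 to 0.983 in the other 21 libraries, and differences between the U251MG variants that changed sign or moved most without replicate 2 are given with and without it below. Of the 7 glial and neural progenitor markers, U251MG held 6 at 1 CPM or more in all 6 libraries, DBTRG-05MG held 5 and U87MG and T98G held 3 each. S100B and SOX2 were under 1 CPM in every U87MG library, SOX2 and NES in every T98G library and OLIG2 in every U251MG and DBTRG-05MG library. The 4 leukocyte markers were under 1 CPM in every library, with summed levels of at most 0.351 CPM. Of 3 endothelial and 3 epithelial markers, CDH5 in U251MG was at 1 CPM or more in all 6 libraries of a line and no other was, and the summed endothelial level in U251MG was 2.01 to 13.3 CPM.

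The bases before the annotated starts of the 9p21 genes are shown because the presence or absence of tags of these genes by line is the main pattern in the data. The table gives no positions of tags, so that whether the counted capped ends lay at these starts was not tested. The 250 bases upstream of each RefSeq start (GRCh38.p14) are given 5′ to 3′ on the strand of the gene, with GC boxes (GGGCGG on either strand) and TATA boxes (TATAAA on either strand) in capitals.
MTAP, chr9:21802386-21802635, plus strand: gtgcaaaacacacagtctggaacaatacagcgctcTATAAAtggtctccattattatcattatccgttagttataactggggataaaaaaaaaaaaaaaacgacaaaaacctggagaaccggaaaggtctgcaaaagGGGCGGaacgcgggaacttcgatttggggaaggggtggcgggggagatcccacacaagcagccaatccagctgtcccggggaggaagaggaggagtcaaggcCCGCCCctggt
CDKN2A, distal start (ARF), chr9:21995325-21995574, minus strand: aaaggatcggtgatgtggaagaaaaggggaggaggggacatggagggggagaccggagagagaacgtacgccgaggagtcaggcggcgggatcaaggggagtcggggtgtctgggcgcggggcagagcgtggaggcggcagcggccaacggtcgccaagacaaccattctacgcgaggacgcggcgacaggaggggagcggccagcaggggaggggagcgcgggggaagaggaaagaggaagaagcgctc
CDKN2A, proximal start (p16), chr9:21974858-21975107, minus strand: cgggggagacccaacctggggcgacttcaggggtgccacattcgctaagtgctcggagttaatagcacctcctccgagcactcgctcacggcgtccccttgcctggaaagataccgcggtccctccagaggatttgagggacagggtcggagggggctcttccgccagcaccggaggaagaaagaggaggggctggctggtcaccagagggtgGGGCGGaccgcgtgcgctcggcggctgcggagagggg
CDKN2B, chr9:22009306-22009555, minus strand: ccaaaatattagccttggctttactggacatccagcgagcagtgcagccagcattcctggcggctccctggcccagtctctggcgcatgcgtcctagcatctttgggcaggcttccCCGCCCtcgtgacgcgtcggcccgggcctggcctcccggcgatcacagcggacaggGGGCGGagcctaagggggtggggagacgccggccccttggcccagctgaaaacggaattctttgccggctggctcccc
These 4 windows held 11, 24, 20 and 18 CpG dinucleotides, in the order shown, against a median of 11 over the 35116 windows of this length in RefSeq, and their GC content was 50%, 66.8%, 66.8% and 66.4% against a median of 58%. A GC box was present in the windows of MTAP (2), CDKN2B (2) and the proximal CDKN2A start (1), as in 42.6% of all windows. The letters of a TATA box were present in the MTAP window, as in 10.7% of all windows. They lay near the end of the window that is farthest from the start, and whether they act as a TATA box was not tested. An E box (CACGTG) and the E2F motifs TTTCCCGC and TTTGGCGC, searched on both strands and present in 6.34% and 1.93% of all windows, were in none of the 4. No match shown overlapped another. The starts of CDKN2A lay 20.5 kb apart, but the table gives 1 value a gene, so that tags of p16 and of ARF cannot be told apart.

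CDKN2B was read in T98G and was at or near 0 tags in every library of the other lines, and CDKN2A was read in the same line at a far lower level. CDKN2B, which encodes the INK4 protein p15 (ENSG00000147883, chr9:22002903-22009305, hg38, minus strand), had 15.7, 33.5 and 10.7 CPM in the 3 “Vec” libraries of T98G. It had 13.7, 16.8 and 19.5 CPM in the 3 “WWOX” libraries. All 6 T98G values lay above 10 CPM and the variants overlapped. In bulk libraries such as these, fewer cells with a transcript and less of it in each cell cannot be told apart. In U251MG and DBTRG-05MG all 12 libraries had 0 tags, and in U87MG a single tag was read in the 6 libraries. The T98G mean of 18.3 ± 8.00 CPM (SD, n = 6) was at least 84.7-fold higher than in U87MG, 84.1-fold higher than in U251MG and 94.4-fold higher than in DBTRG-05MG, with the line's mean floor of 3 tags a library taken as its level.

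CDKN2A (ENSG00000147889, chr9:21967752-21995301, minus strand) had 1.48, 1.00 and 0.778 CPM in T98G “Vec” and 0.744, 1.34 and 0.396 CPM in T98G “WWOX” libraries. These values stood for 21, 16 and 10 and for 8, 18 and 6 tags. The other 18 libraries held 1 tag in all, in U251MG “Vec” replicate 1. The T98G mean of 0.955 ± 0.402 CPM was at least 4.42-, 4.39- and 4.92-fold higher than the floor in U87MG, U251MG and DBTRG-05MG. With a gene called on in a group when all 3 libraries held at least 1 CPM, and off when all 3 were under 1 CPM, CDKN2B was on in both T98G groups and off in the other 6. CDKN2A was on in no group, mixed in both T98G groups and off in 6. CDKN2A did not pass the filter of 5 CPM in at least 1 library and was not tested with it. The antisense RNA CDKN2B-AS1 (ANRIL; chr9:21994139-22128103, plus strand), which overlaps the distal CDKN2A start and all of CDKN2B, was read at 1.03 ± 0.428 CPM in T98G “Vec” and 1.21 ± 0.157 CPM in T98G “WWOX” and held 2 tags in all in U87MG, 2 in DBTRG-05MG and 0 in U251MG. Whether the counting used strand is not given in the sources used here, so that tags of CDKN2A, CDKN2B and CDKN2B-AS1 may be shared where they overlap.

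MTAP (ENSG00000099810, chr9:21802636-21937651, plus strand) went a different way. It had 0 tags in all 6 U87MG libraries, 1 to 6 tags a library in T98G and 7 to 25 tags a library in U251MG and DBTRG-05MG. In U251MG it had 1.38, 1.03 and 1.14 CPM in “Vec” and 1.65, 0.572 and 1.15 CPM in “WWOX” libraries. In DBTRG-05MG it had 1.64, 0.579 and 1.58 CPM in “Vec” and 0.472, 0.907 and 0.480 CPM in “WWOX” libraries, and these overlapped. T98G had 0.0930 to 0.389 CPM. The mean in U251MG, 1.15 ± 0.359 CPM, was at least 5.34-fold above the U87MG floor and that in DBTRG-05MG, 0.943 ± 0.540 CPM, at least 4.36-fold. MTAP was on only in U251MG “Vec”, mixed in U251MG “WWOX” and DBTRG-05MG “Vec” and off in the other 5 groups. Thus T98G, the line that held CDKN2A and CDKN2B, held less MTAP than U251MG and DBTRG-05MG, and every T98G value lay below every value of those lines. The annotated MTAP start is also that of a long noncoding RNA on the same strand (ENSG00000264545) that was not in the table used here and that runs on across CDKN2A and CDKN2B on the strand opposite to them. Over the 640 protein-coding genes of the table whose start lies in an exon of another gene on the same strand, the median of the mean CPM was 0.0791, against 4.88 over the 17145 genes whose start lies in no other exon. Whether shared tags lowered the MTAP values, and whether they had a part in the differences between lines, was not tested.

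**Figure D1:**
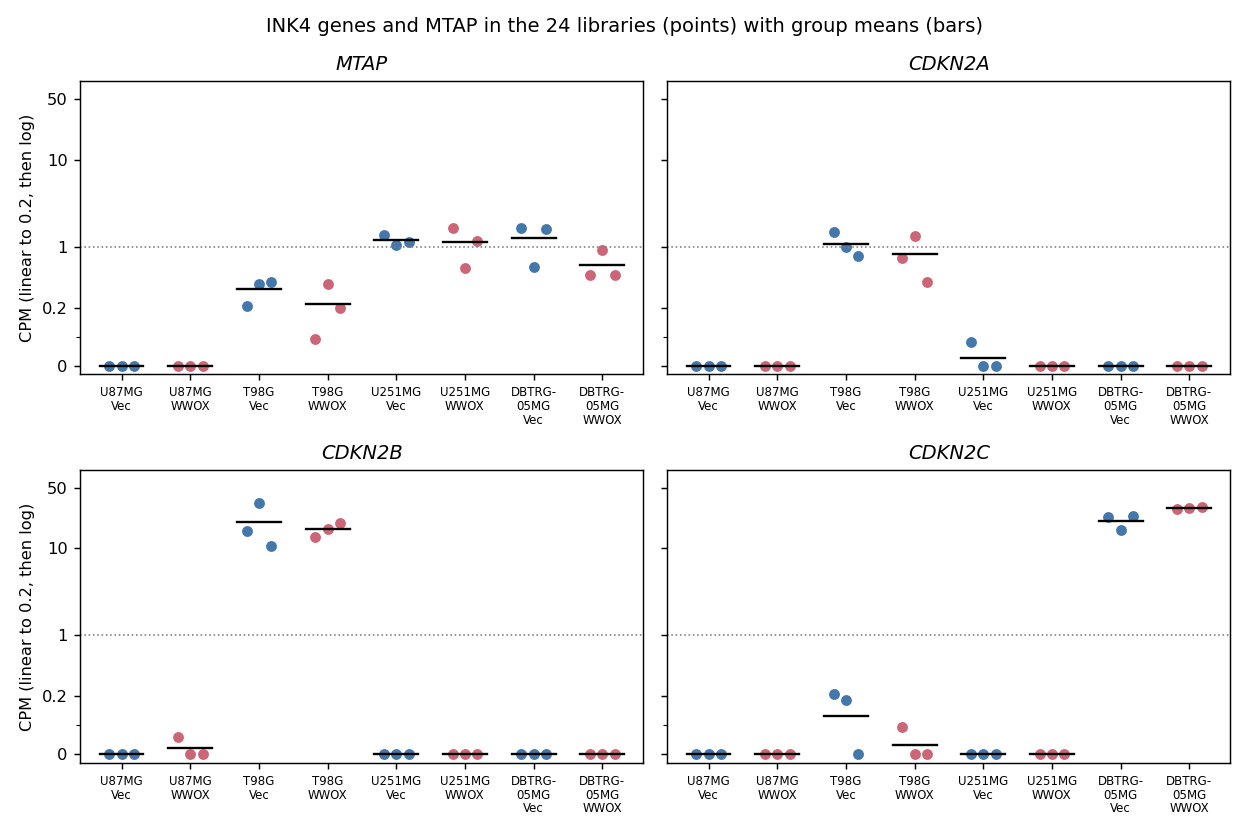
CPM of MTAP, CDKN2A, CDKN2B and CDKN2C in each of the 24 libraries (points; blue, “Vec”; red, “WWOX”) with the group mean (bar), on an axis that is linear up to 0.2 CPM and logarithmic above. The dotted line marks 1 CPM. CDKN2B lies above it only in the 6 T98G libraries and CDKN2C only in the 6 DBTRG-05MG libraries, and MTAP is at 0 in all 6 U87MG libraries.

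The genes around CDKN2A were read to find the nearest that was on in each line on either side. Within 5 Mb of the CDKN2A start the table held 103 genes, of which 77 were off in all 4 lines, 8 were on in all 4, 11 were on in some lines and off in others, and the other 7 were on in none but mixed in at least 1. In U87MG no gene was on between RPS6, 2615 kb toward the telomere (1665 CPM), and TUSC1, 3683 kb toward the centromere (11.9 CPM). Those 6298 kb held 72 genes, 7 of which were on in another line: MLLT3, FOCAD, HACD4, KLHL9, MIR31HG, CDKN2B and DMRTA1. Between RPS6 and TUSC1, ACER2 (mean 1.34, up to 2.46 CPM) and ELAVL2 (mean 1.03, up to 1.40 CPM) were mixed in U87MG, so that the interval was not without tags (both were named after their values were seen). FOCAD, for example, was at 0.0259 CPM in U87MG and at 10.8, 13.6 and 8.00 CPM in T98G, U251MG and DBTRG-05MG.

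In U251MG the nearest genes that were on were KLHL9, 660 kb toward the telomere (30.5 CPM), and DMRTA1, 452 kb toward the centromere (4.64 CPM). MIR31HG and CDKN2B lay between them and were on elsewhere but off in U251MG. In DBTRG-05MG the nearest were MIR31HG, the host RNA of miR-31, 435 kb toward the telomere (67.2 CPM), and CAAP1, 4898 kb toward the centromere (17.7 CPM). CDKN2B, DMRTA1 and TUSC1, which lay between them, were on in other lines, and TUSC1 and DMRTA1 had 0 tags in all 6 DBTRG-05MG libraries. Within these intervals MTAP was mixed in U251MG (up to 1.65 CPM) and DBTRG-05MG (up to 1.64 CPM). In T98G MIR31HG was on (13.9 CPM) and CDKN2B followed 14.004 kb on the other side of CDKN2A, with CDKN2A and CDKN2B-AS1 mixed between them. TUSC1 had 0 tags in all 6 U251MG libraries too, and 10.7 CPM in T98G. PLIN2, ADAMTSL1 and SAXO1, 2846 to 4089 kb toward the telomere, also differed between lines, with PLIN2 on only in T98G (65.1 CPM). These are RNA levels, so that a gene that is absent and a gene that is silent cannot be told apart.

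**Figure D2:**
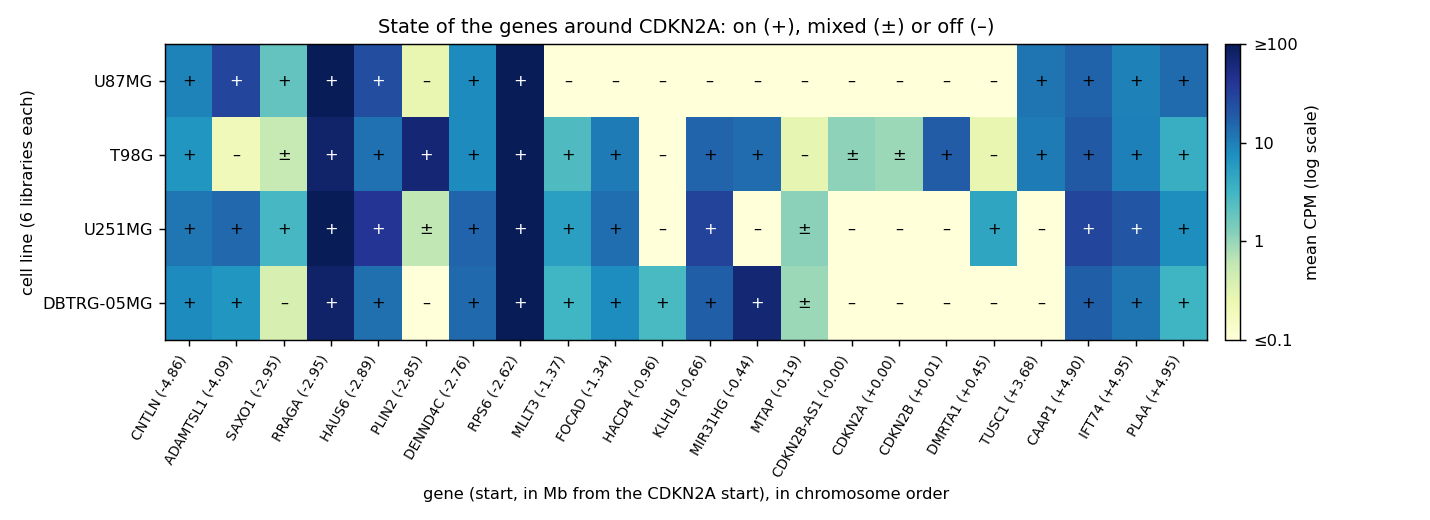
Mean CPM over 6 libraries (colour, log scale) of MTAP, CDKN2A, CDKN2B-AS1 and the 19 genes within 5 Mb of CDKN2A that were on in at least 1 line, in chromosome order, with each start's distance from the CDKN2A start in Mb. A plus marks at least 1 CPM in all 6 libraries, a minus under 1 CPM in all 6 and a plus-minus the rest. In U87MG every gene drawn from MLLT3 to DMRTA1 is off, and CDKN2B is on only in T98G.

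CDKN2C (ENSG00000123080, chr1:50960745-50974634, plus strand), which encodes the INK4 protein p18, was above 3 tags a library in DBTRG-05MG alone. It had 22.7, 16.2 and 23.7 CPM in “Vec” and 28.3, 28.8 and 29.7 CPM in “WWOX” libraries of DBTRG-05MG, and every “WWOX” value lay above every “Vec” value. It had 0 tags in all 12 U87MG and U251MG libraries and 0 to 3 tags a library in T98G. The DBTRG-05MG mean of 24.9 ± 5.11 CPM (SD, n = 6) was at least 115-, 112- and 114-fold higher than the floor of 3 tags in U87MG, T98G and U251MG. The gene whose pattern over the 24 libraries was most like that of CDKN2C was its neighbour FAF1 (FAS-associated factor; Pearson r = 0.998 on the log2 scale, over 24 libraries of 4 lines; a description), which starts 478 bases away on the opposite strand. FAF1 was at 24.0 ± 1.21 CPM in DBTRG-05MG and held 1, 6 and 1 tags over the 6 libraries each of U87MG, T98G and U251MG. Within 1 Mb of CDKN2C, a window chosen after these values were seen, 4 of 37 genes were on in all 4 lines. The nearest of these, RNF11, 276 kb away, was at 57.1 to 108 CPM. DMRTA2, 537 kb on the other side, was on only in DBTRG-05MG (6.11 ± 1.51 CPM).

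CDKN2D (chr19:10566460-10569059), the fourth INK4 gene, encodes p19 and was on in all 8 groups. It was at 10.3 ± 5.91 CPM in U87MG, 14.3 ± 5.78 CPM in U251MG and 10.9 ± 2.78 CPM in DBTRG-05MG, and at 2.94 ± 1.60 CPM in T98G (SD, n = 6). T98G was lower than U87MG (log2 difference 1.60 ± 0.33, SE; limma, adjusted p = 0.000249), U251MG (adjusted p = 2.96e-05) and DBTRG-05MG (adjusted p = 0.000276). The other 3 lines were not called different from each other (adjusted p of 0.344 to 0.955). The make-up of the INK4 family thus differed by line. CDKN2D made up 99.8% and 99.9% of the summed INK4 tags in U87MG and U251MG. CDKN2B made up 80.7 ± 10.7% in T98G, and CDKN2C made up 69.2 ± 8.35% in DBTRG-05MG. The summed level was 10.3 ± 5.90 CPM in U87MG, 14.3 ± 5.77 in U251MG, 22.3 ± 7.79 in T98G and 35.7 ± 4.66 in DBTRG-05MG. These shares describe RNA and say nothing of the proteins.

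**Figure D3:**
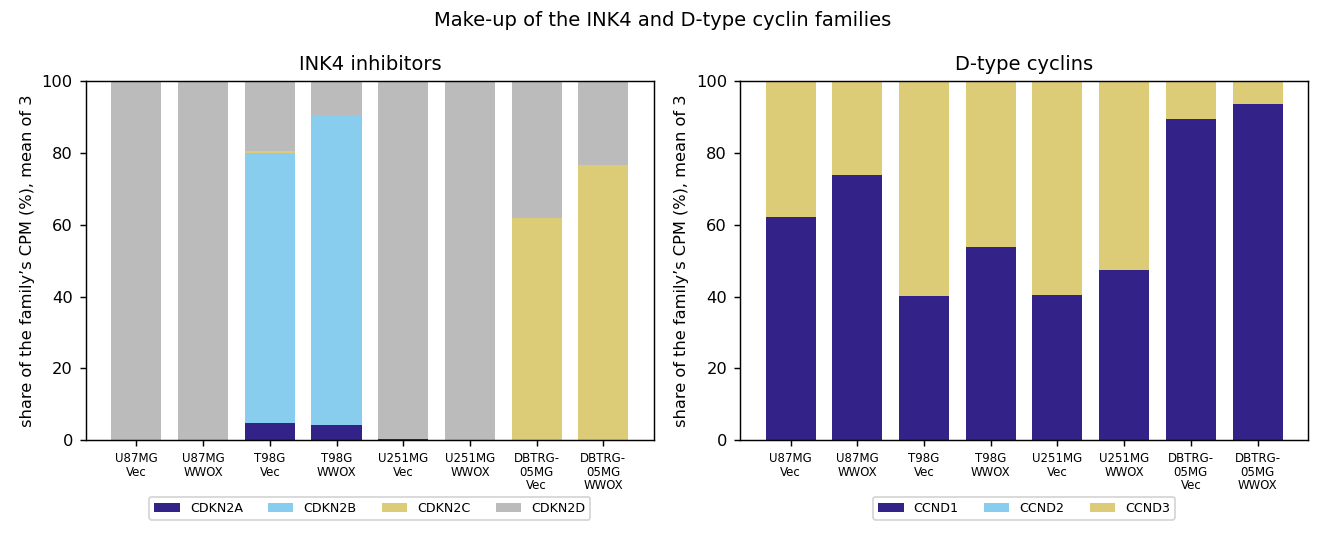
Mean share of each gene in the summed CPM of the 4 INK4 genes (left) and of the 3 D-type cyclin genes (right) in each group (n = 3 libraries). U87MG and U251MG hold CDKN2D almost alone, T98G holds mostly CDKN2B and DBTRG-05MG mostly CDKN2C. CCND1 makes up 89.4% and 93.5% of the D-type cyclins in the DBTRG-05MG groups.

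The lines were then compared with each other for the members that passed the filter, each line taken as the mean of its “Vec” and “WWOX” groups. CDK4, CDK6, CCND1 and RB1 were on in all 8 groups. CDKN2B and CDKN2C passed only through T98G and DBTRG-05MG, in that order, so that they had to differ in the comparisons with those lines, and they are not counted as support below. Adjusted p-values are from limma with Benjamini-Hochberg adjustment over all 12327 genes. The background was high, since U87MG differed from T98G for 53% of all genes, from U251MG for 54.1% and from DBTRG-05MG for 60.2%. T98G differed from U251MG for 48% and from DBTRG-05MG for 57.3%, and U251MG differed from DBTRG-05MG for 50.4%. Of CDK4, CDK6, CCND1 and RB1, U87MG differed from T98G in 3, from U251MG in 4 and from DBTRG-05MG in 3. T98G differed from U251MG in 1 and from DBTRG-05MG in 2, and U251MG differed from DBTRG-05MG in 3. With so many genes called, these shares are no result about the members, and only the order of the levels is described.

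CCND1 (ENSG00000110092, chr11:69641156-69654474, plus strand), which encodes cyclin D1, was highest in DBTRG-05MG. Its level there was 273, 388 and 282 CPM in “Vec” and 533, 350 and 381 CPM in “WWOX” libraries. U87MG had 94.6, 108 and 170 CPM in “Vec” and 144, 232 and 115 CPM in “WWOX” libraries. T98G held 58.6 to 78.8 CPM and U251MG 35.0 to 116 CPM. Every DBTRG-05MG library lay above every library of the other lines in CPM. DBTRG-05MG exceeded U87MG by 1.16 ± 0.26 on the log2 scale (adjusted p = 0.00053), T98G by 2.16 ± 0.26 (2.49e-07) and U251MG by 2.42 ± 0.26 (6.12e-08), that is by 2.24-, 4.46- and 5.37-fold. U87MG was above T98G (1.00 ± 0.26, adjusted p = 0.00247) and U251MG (1.26 ± 0.26, adjusted p = 0.000267). T98G and U251MG were not called different (0.27, 95% interval −0.27 to 0.80). With “Vec” libraries alone the difference between U87MG and T98G was 0.84 and did not pass (adjusted p = 0.0715).

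The other D-type cyclins did not share this order. CCND2 (ENSG00000118971, chr12:4269771-4305353, plus strand), which encodes cyclin D2, was off in all 8 groups. It had 0 tags in all 12 U87MG and T98G libraries, 1 tag in U251MG and 3 to 10 tags a library in DBTRG-05MG (0.193 to 0.659 CPM), and it did not pass the filter. Fitted without the filter, CCND2 was called in 3, CDKN2A in 3 and MTAP in 5 of the 6 comparisons of lines (limma). The calls of CCND2 were the comparisons with DBTRG-05MG and those of CDKN2A the comparisons with T98G. No other line held more than 1 tag of the gene a library, so that these calls are no support. The share of all genes called without the filter is not given here. CCND3, which encodes cyclin D3, was lowest in DBTRG-05MG at 31.2 ± 11.3 CPM. The other lines had 65.7 ± 23.7 (U87MG), 80.8 ± 30.3 (T98G) and 86.6 ± 32.4 CPM (U251MG). DBTRG-05MG was lower than U87MG by 1.27 ± 0.30 (adjusted p = 0.000983), than T98G by 1.60 ± 0.30 (0.000107) and than U251MG by 1.52 ± 0.30 (0.000247), all on the log2 scale. CCND1 thus made up 91.4 ± 4.37% of the D-type cyclin tags in DBTRG-05MG and 68.0 ± 10.1% in U87MG, while in T98G and U251MG it made up 47.0 ± 8.79% and 43.9 ± 10.4%.

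CDK4 (ENSG00000135446, chr12:57747727-57756013, minus strand) was the highest member in 7 of 8 groups, and CDK6 (ENSG00000105810, chr7:92604921-92836573, minus strand) was a small part of the pair. CDK4 ranged from 199 to 332 CPM in U251MG, which had 262 ± 42.8 CPM, and from 291 to 505 CPM in the other lines. T98G had 429 ± 14.7, DBTRG-05MG 409 ± 76.0 and U87MG 403 ± 67.1 CPM. U251MG was lower than U87MG by 0.76 ± 0.17 (adjusted p = 0.000812), than T98G by 0.89 ± 0.17 (0.00019) and than DBTRG-05MG by 0.56 ± 0.17 (0.0104), on the log2 scale. The other lines were not called different from each other, with adjusted p-values of 0.107 to 0.549, and U87MG lay above DBTRG-05MG on the scaled values (0.20) but not on CPM as deposited (−0.02). With “Vec” libraries alone the difference between U87MG and U251MG was 0.59 and did not pass (adjusted p = 0.0644).

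CDK6 was lowest in U87MG. Its values there were 3.34, 8.27 and 12.7 CPM in “Vec” and 3.67, 3.39 and 4.74 CPM in “WWOX” libraries, against 10.9 to 36.9 CPM in the 18 libraries of the other lines, and 1 U87MG library lay within that range. U87MG was lower than T98G by 2.15 ± 0.26 (adjusted p = 2.85e-07), than U251MG by 1.61 ± 0.26 (1.78e-05) and than DBTRG-05MG by 1.67 ± 0.26 (9.12e-06), that is by 4.45-, 3.04- and 3.19-fold. T98G, DBTRG-05MG and U251MG had 25.3 ± 5.88, 21.9 ± 7.91 and 20.5 ± 9.56 CPM and were not called different (adjusted p of 0.0866 to 0.854). CDK6 made up 1.57 ± 1.11% of the tags of both kinases in U87MG and 5.15 ± 1.58% to 7.51 ± 3.73% in the other lines.

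RB1 (ENSG00000139687, chr13:48303744-48599436, plus strand) was read in every library. It was highest in DBTRG-05MG, with 39.1, 40.6 and 75.1 CPM in “Vec” and 47.3, 50.5 and 32.1 CPM in “WWOX” libraries. It was lowest in U87MG, with 7.38, 9.81 and 10.1 CPM in “Vec” and 13.4, 10.9 and 9.49 CPM in “WWOX” libraries. T98G had 20.02 ± 8.34 and U251MG 26.3 ± 13.5 CPM and lay between them. DBTRG-05MG exceeded U87MG by 1.92 ± 0.29 (adjusted p = 5.96e-06), T98G by 1.04 ± 0.29 (0.00412) and U251MG by 0.92 ± 0.29 (0.011) on the log2 scale. U87MG was below T98G by 0.88 ± 0.29 (adjusted p = 0.0133) and below U251MG by 1.00 ± 0.29 (0.00591), and T98G and U251MG were not called different (T98G minus U251MG −0.11, 95% interval −0.71 to 0.49). With “Vec” libraries alone neither U87MG against T98G (−0.97, adjusted p = 0.065) nor U251MG against DBTRG-05MG (−1.05, adjusted p = 0.0541) passed.

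The other pocket proteins were RBL2 (p130) and RBL1 (p107). RBL2 was on in all groups, at 60.5 ± 16.1 CPM in DBTRG-05MG, 59.7 ± 31.7 in U251MG, 39.4 ± 10.5 in T98G and 26.9 ± 8.46 in U87MG, and U87MG was lower than U251MG (adjusted p = 0.0218) and DBTRG-05MG (adjusted p = 0.00648). RB1 made up 43.7 ± 7.24% of the pocket protein tags in DBTRG-05MG, 32.7 ± 5.48% in T98G, 31.0 ± 2.76% in U251MG and 27.7 ± 3.39% in U87MG. RBL1 stayed at or under 1.03 CPM in all 24 libraries.

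**Figure D4:**
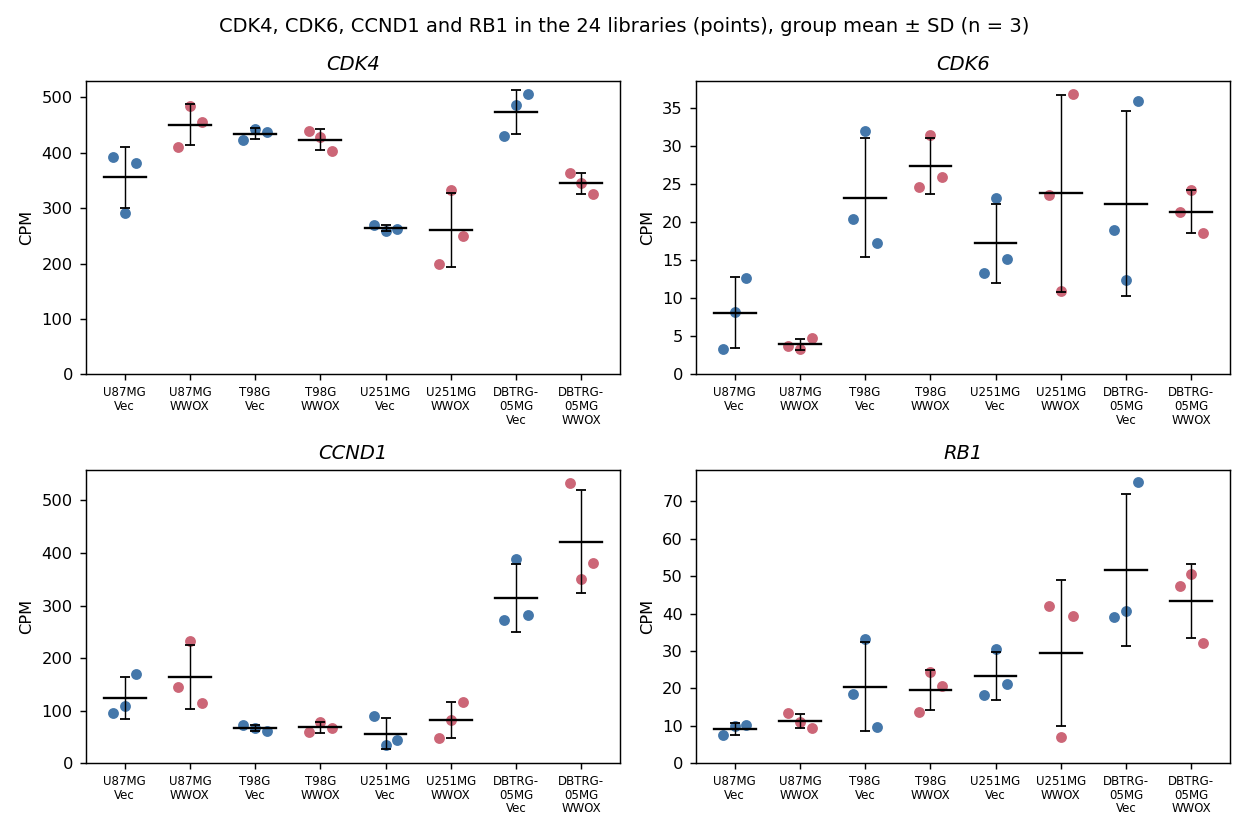
CPM of CDK4, CDK6, CCND1 and RB1 in the 24 libraries (points; blue, “Vec”; red, “WWOX”), with the mean (long bar) and SD (whiskers) of each group (n = 3), on linear axes from 0. CDK6 is lowest in U87MG and CCND1 highest in DBTRG-05MG, and RB1 in U251MG “WWOX” has 1 library at 6.87 CPM and the others at 42.0 and 39.4 CPM.

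The genes whose pattern over the 24 libraries was most like each member's were named by Pearson's r on the scaled log2 values, as a description in which the 6 libraries of a line share most of their differences. For CDKN2B they were ITGA8, IRX2 and RUNX3 (r of 0.997, 0.997 and 0.994), and for CDKN2C, after FAF1, ANPEP and PNPLA4 (0.998 and 0.997). For CCND1 they were ELAPOR2, CNIH3 and CDKN1A (0.911, 0.909 and 0.900), the last of which encodes the CIP/KIP inhibitor p21. For RB1 they were PKN2, MRPL42 and CBL (0.949, 0.941 and 0.932), for CDK6 PPME1, SPATA13 and NAA40 (0.909, 0.907 and 0.890) and for CDK4 PHB2, RRP7A and TSPO (0.922, 0.878 and 0.875).

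“WWOX” and “Vec” were compared within each line to ask whether WWOX overexpression moved these genes. Counts are over the members that were on in the line: CDK4, CDK6, CCND1 and RB1 in U87MG and U251MG, these and CDKN2B in T98G, and these and CDKN2C in DBTRG-05MG. CDKN2B and CDKN2C held at most 3 tags a library in the lines where they were not on and could not be called there. An adjusted p of 0.05 (limma) was passed by 0 of 4 members in U87MG and U251MG, where 3.2% and 0.316% of all genes passed, and by 0 of 5 in T98G and DBTRG-05MG, where 1.14% and 1.02% did. Before adjustment, p was under 0.05 for 1 member in U87MG, 2 in DBTRG-05MG and 0 in the other lines. DESeq2, edgeR and limma-voom, run on whole tags, also called 0 in every line. Of the mean effect of the 4 lines, for which 1.78% of all genes passed, and of the interaction of line and variant, for which 3.5% passed, 0 of the 4 members on in all lines were called either, also by DESeq2, edgeR and limma-voom, with 0 at an unadjusted p under 0.05 (limma). Over all genes, 1900 for the mean effect and 1797 for the interaction were under 0.05 before adjustment. Variants were fully separated, with every library of one above every library of the other, for 0 of 4, 0 of 5 and 0 of 4 members in U87MG, T98G and U251MG, where 17.5%, 16.2% and 10.4% of all genes were, and for 2 of 5 in DBTRG-05MG, where 19.7% were.

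Those in DBTRG-05MG were CDKN2C and CDK4. CDKN2C went from 20.9 ± 4.05 CPM in “Vec” to 28.9 ± 0.720 CPM in “WWOX” (log2 difference 0.42, 95% interval 0.02 to 0.81; adjusted p = 0.604). CDK4 in DBTRG-05MG had 429, 486 and 505 CPM in “Vec” and 363, 345 and 325 CPM in “WWOX” libraries, with a log2 difference of −0.52 (−1.03 to −0.01; adjusted p = 0.642). Over the 652 genes of chromosome 12 that were tested, the median difference in this line was 0.202 lower than the median over all genes, and the part of this shift in the CDK4 difference was not tested. In U87MG, T98G and U251MG the CDK4 differences were 0.29, −0.04 and −0.06. CDK6 in U87MG had 8.10 ± 4.68 CPM in “Vec” and 3.94 ± 0.713 CPM in “WWOX” (−0.85, 95% interval −1.61 to −0.09; adjusted p = 0.331). The value at 3.34 CPM in “Vec” replicate 1 lay below all 3 “WWOX” values. Without it the difference was −1.35 and passed (adjusted p = 0.0281). CDK6 differences in T98G, U251MG and DBTRG-05MG were 0.27, 0.32 and −0.01.

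CCND1 differences were positive in all 4 lines but small against their errors, at 0.32 (U87MG), 0.01 (T98G), 0.55 (U251MG) and 0.35 (DBTRG-05MG; SE 0.36 each), with a mean of 0.31 ± 0.18 (95% interval −0.07 to 0.69; adjusted p = 0.437). RB1 differences were 0.23, 0.07, −0.02 and −0.27 in the same order (SE 0.41 each). In U251MG “WWOX” RB1 was at 42.0, 6.87 and 39.4 CPM, and without replicate 2, the library that held 17.4 CPM of WWOX, the difference was 0.59 (adjusted p = 0.302). CDKN2B in T98G went from 19.9 ± 12.0 to 16.7 ± 2.94 CPM (−0.10, 95% interval −0.59 to 0.39; adjusted p = 0.922). Without “Vec” replicate 2, at 33.5 CPM, it was 0.27. Intervals of this width allow changes of more than 1 log2 unit for CDK4, CDK6, CCND1 and RB1 in at least 1 line. The members that failed the filter, fitted without it, were called in 0 of the comparisons of variants, with MTAP in DBTRG-05MG at −0.63 (adjusted p = 0.287).

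**Figure D5:**
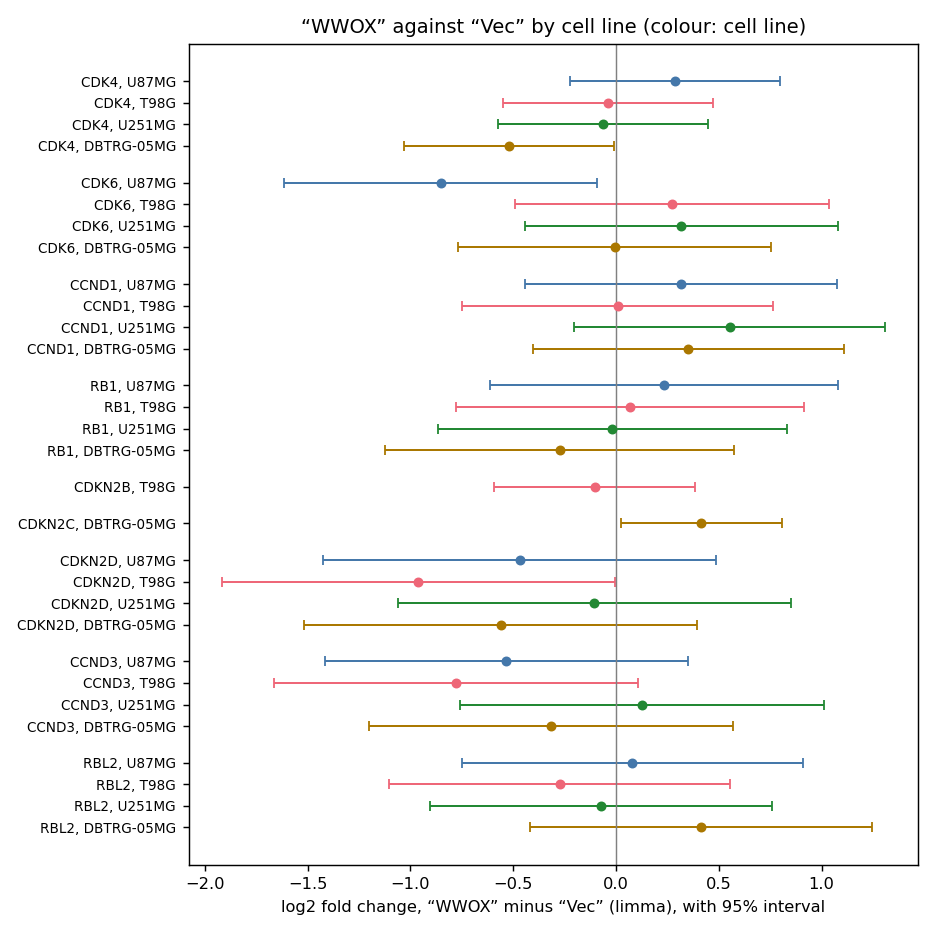
Log2 difference of “WWOX” minus “Vec” (points) with its 95% interval (bars) for the members that were on and tested and for CDKN2D, CCND3 and RBL2, coloured by cell line. The intervals of CDK6 in U87MG, CDK4 and CDKN2C in DBTRG-05MG and CDKN2D in T98G exclude 0 before adjustment, and none passes an adjusted p of 0.05.

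Among the relatives of the members, CDKN2D in T98G had 4.08 ± 1.56 CPM in “Vec” and 1.80 ± 0.276 CPM in “WWOX” (−0.96 ± 0.46, adjusted p = 0.431), and its differences in U87MG, U251MG and DBTRG-05MG were −0.47, −0.11 and −0.56. CCND3 in T98G had 103 ± 27.0 and 59.0 ± 12.2 CPM (−0.78 ± 0.43, adjusted p = 0.506). RBL2 differences lay between −0.27 and 0.41. In U251MG both changed sign without “WWOX” replicate 2, CCND3 from 0.13 to −0.44 (adjusted p = 0.555) and RBL2 from −0.07 to 0.58 (adjusted p = 0.247).

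The rest of the pathway was read from 58 genes in 6 lists, 53 of which were tested. In U87MG 2 were called by limma (3.77%), and in T98G, U251MG and DBTRG-05MG 0, beside the shares of all genes given above. At an unadjusted p under 0.05 there were 3, 5, 5 and 0 genes in this order of lines, beside the counts over all genes given above. For the mean effect of the 4 lines there were 12, beside 1900 over all genes, and 0 were called (limma). For the interaction there were 4, beside 1797 over all genes, and 0 were called. In T98G, U251MG and DBTRG-05MG the only call by edgeR, limma-voom or DESeq2 was that of ADI1, an enzyme of methionine salvage, in T98G by DESeq2. E2F7, which encodes an atypical E2F that represses E2F targets, rose in U87MG from 1.78, 1.47 and 2.67 CPM in “Vec” to 15.1, 14.4 and 16.7 CPM in “WWOX” (2.68 ± 0.59, adjusted p = 0.00943). The libraries did not overlap. It did not pass with limma-voom (adjusted p = 0.0828) or without “Vec” replicate 2 (0.0601), and the test of the interaction of line and variant gave an adjusted p of 0.106, while DESeq2 called the interaction. The U87MG difference exceeded the mean difference of the other 3 lines by 2.67 ± 0.69 (adjusted p = 0.0383, limma; 2.39% of all genes passed), and edgeR and DESeq2 also called it. That excess did not pass with limma-voom (adjusted p = 0.153), with a pseudocount of 1 (0.0586), with no filter (0.0642), with a mean of at least 5 CPM (0.0601) or without any one of the 6 U87MG libraries (0.069 to 0.138). MRI1, an enzyme of the methionine salvage that starts with MTAP, fell in U87MG, where MTAP had 0 tags, from 27.4 ± 8.72 to 12.5 ± 4.90 CPM (−1.18 ± 0.29, adjusted p = 0.0241). It did not pass without U87MG “Vec” replicate 2 (adjusted p = 0.182) or 3 (0.0886), or without “WWOX” replicate 1 (0.185) or 2 (0.0793), or in a model of U87MG alone (0.293).

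Of the 16 E2F target genes (among them MCM2 to MCM7, CDC6, CDT1, CDC45, PCNA, RRM2, MYBL2 and CCNA2), 15 were tested and 0 were called in any line by limma, edgeR, limma-voom or DESeq2. At an unadjusted p under 0.05 there were 1, 0, 3 and 0 in U87MG, T98G, U251MG and DBTRG-05MG (limma), beside the counts over all genes given above. The differences were positive for 0 of 15 in U87MG and U251MG, 3 in T98G and 1 in DBTRG-05MG. The medians of the list were −0.60 (U87MG), −0.31 (T98G), −0.96 (U251MG) and −0.52 (DBTRG-05MG), against medians over all genes between −0.04 and 0.00. For the mean effect of the 4 lines the difference was positive for 0 of 15, and 0 were called (limma). The list's median for it was −0.61, against −0.01 over all genes. Its unadjusted p was under 0.05 for 6 of the 15, beside 1900 of all genes. Genes of this list move together with the cycle and are not independent. In U251MG the median was −1.03 without “WWOX” replicate 2 and −0.33 without “WWOX” replicate 1. CDH5, an endothelial marker, was higher in “WWOX” in this line, with 3.81, 2.71 and 2.01 CPM in “Vec” and 13.2, 4.43 and 7.17 CPM in “WWOX” (1.28 on the log2 scale, adjusted p = 0.0132, limma). CDH5 reached the filter of 5 CPM only in “WWOX” replicates 1 and 3 of this line. Its difference did not pass there with edgeR (adjusted p = 0.254), limma-voom (0.122) or DESeq2 (0.178), and its part in the list's median was not tested. For other lists, the medians of the 4 lines ran from −0.32 to 0.18 for the 7 tested genes of the CDK2 arm and the CIP/KIP inhibitors, from −0.28 to −0.06 for the 10 E2F and DP factors and from −0.21 to 0.26 for the 10 tested genes of methylthioadenosine and polyamine metabolism. Between lines, E2F targets were higher in U87MG than in T98G for 6 of 15 genes, than in U251MG for 9 and than in DBTRG-05MG for 9, with 0 lower in each, where 25.4%, 25.4% and 27.2% of all genes were higher in U87MG. These counts are a description of genes that move together, since 53% to 60.2% of all genes differed between these lines, and the medians were 0.94, 1.47 and 1.40 against −0.03, −0.03 and −0.08 over all genes.

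In the 9p21 neighbourhood, HACD4, 964 kb from CDKN2A and on only in DBTRG-05MG, fell there from 3.92 ± 1.07 to 1.76 ± 0.248 CPM (−0.98 ± 0.18, adjusted p = 0.00384). It passed the filter only through DBTRG-05MG “Vec” replicate 3 (5.14 CPM). The other lines held at most 4 tags a library, so that its mean over the lines, −0.36 ± 0.09 (adjusted p = 0.0371), restates the difference in DBTRG-05MG, and it did not pass with DESeq2 (0.305), edgeR (1.00) or without U251MG “Vec” replicate 3 (0.0801), among other libraries. The DBTRG-05MG difference did not pass with a pseudocount of 0.1 (adjusted p = 0.175), edgeR (0.513), limma-voom (0.0855), DESeq2 (0.553) or a model of that line alone (0.111). Its interaction of line and variant gave an adjusted p of 0.0848. The other 10 tested neighbours in the list were not called. The median over the 505 chromosome 9 genes tested was 0.203 lower than the median over all genes in DBTRG-05MG, and the part of this shift in the HACD4 difference was not tested. On chromosomes 1, 7, 11 and 13, which carry other members, this median lay at most 0.114 from that of all genes in every line.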

How the data were processed

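Gene-level values of 24 CAGE-seq libraries were used. Per the labels and the methods of the study, reads were mapped by the authors with STAR (hg38) and tags counted with SAMtools in R, and the deposited values are CPM, the tags of a gene per 1000000 tags of the library. Whether strand was used in counting is not given in the sources used here. Files of single samples hold the same values as the table of all samples and were not used apart from it.

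Each CPM value times the library total gave whole tags for 100.0% of values (tolerance 0.01), and library totals and the limit of 3 tags were taken from these. CPM values were scaled by TMM factors, 0.5 was added and log2 taken. Log2 fold changes are on this scale and understate changes of low genes. The 12327 genes that reached 5 CPM in 1 library or more were fitted with limma 3.58.1 in R 4.3.3 (trended prior, 8 groups), with Benjamini-Hochberg adjustment and a threshold of 0.05. The fit was tested on simulated data. Levels, shares and on or off states are descriptions of CPM. Alternatives were edgeR 4.0.16, DESeq2 1.42.0 and limma-voom on the recovered tags, other pseudocounts, filters and scalings, a separate model per line, the replicate block and leaving out each library.

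The members, lists and tests were chosen with earlier results of these data known. Named were all members, their relatives (CDKN2D, CCND3, RBL1, RBL2, CDKN2B-AS1), up to 4 called genes of each list for each comparison of variants, the nearest genes that were on around CDKN2A and those on in some lines only, and for each tested member the 3 genes most like it. Genes were placed by GENCODE 44 (43033 of 43037 identifiers matched). Upstream sequences are from RefSeq (GRCh38.p14). CDKN2B-AS1, neighbours within 5 Mb and chromosome medians were read from the same table. Libraries were not treated as paired by replicate number in the main fit. Correlations of same-numbered deviations ran from −0.55 to 0.51. The same number was the best match only for U87MG replicate 1 and T98G replicates 1 and 2, so that these values cannot decide whether libraries were paired. Some genes of the lists are not reported here by name.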

Additional observations from a re-analysis of the deposited data

Results flagged for a closer look

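E2F7, the atypical E2F, drew attention because its difference between “WWOX” and “Vec” in U87MG exceeded the mean difference of the other 3 lines (2.67 ± 0.69 on the log2 scale, adjusted p = 0.0383, limma), and this excess did not pass with limma-voom or without any one of the 6 U87MG libraries. CDH5, the endothelial marker, drew attention because its difference between variants varied over the lines (interaction of line and variant, adjusted p = 0.0473, limma) and was higher in U251MG than the mean of the other 3 lines (1.25 ± 0.27, adjusted p = 0.0397), which did not pass with edgeR (adjusted p = 1.00), limma-voom (0.434) or DESeq2 (0.717). CDH5 reached the filter of 5 CPM only in U251MG “WWOX” replicates 1 and 3. The other lines held at most 3 tags of it a library, so that both results restate the difference in U251MG. None of the 6 members tested met such a test.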

How the results depend on the processing

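The count of members called between variants in U87MG was 0 to 1 when a library was left out (1 without “Vec” replicate 1, CDK6). The count of pathway genes called in U87MG, 2, was 1 with limma-voom and with a separate model per line and 0 to 2 when a library was left out. In T98G and for the interaction it was 1 with DESeq2, and in U251MG, for the mean effect and for the interaction it was 0 to 1 when a library was left out (1 in U251MG and 1, MCM2, for the mean, both without U251MG “WWOX” replicate 2). Between lines, counts over all 6 members tested, CDKN2B and CDKN2C included, went from 4 to 2 in U87MG against T98G with “Vec” libraries only. Without a filter all 9 members were fitted. The count then went from 2 to 4 in T98G against U251MG, with MTAP and CDKN2A added. It went from 4 to 7 in T98G against DBTRG-05MG, with MTAP, CDKN2A and CCND2 added. With a mean of at least 5 CPM, CDKN2B (mean 4.58 CPM over all libraries) was not fitted, and the count in T98G against U251MG was 1. MTAP was on in 3 groups at 0.5 CPM, 0 at 5 CPM and 4 at more than 3 tags, and CDKN2A in 1 at 0.5 CPM and 2 at more than 3 tags.

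Some differences that were not called changed sign, and the cause was not tested. Not all of them were near 0, since CDKN2D in U87MG was at −0.47 and CDK4 in U87MG minus DBTRG-05MG at 0.20 in the main fit. With edgeR and DESeq2 the U251MG differences between variants were 0.039 and 0.075 for CDK4, 0.22 and 0.21 for RB1, 0.045 and 0.085 for CDKN2D and 0.16 and 0.14 for RBL2. RB1 was at 0.00152 in U251MG on CPM as deposited, at 0.018 there with limma-voom and at −0.029 in T98G with edgeR. CDK6 in DBTRG-05MG was at 0.057 on CPM as deposited. CDK4 in U87MG minus DBTRG-05MG was at −0.020 on CPM as deposited and −0.20 with “Vec” libraries only. Leaving out a library gave ranges of −0.10 to 0.057 (CDK4, T98G), −0.49 to 0.20 (CDK4, U251MG), −0.31 to 0.34 (CDK6, DBTRG-05MG), −0.20 to 0.019 (CDK6, mean effect), −0.22 to 0.11 (CDK6, U251MG minus DBTRG-05MG), −0.10 to 0.091 (CCND1, T98G), −0.29 to 0.42 (RB1, T98G), −0.37 to 0.59 (RB1, U251MG), −0.10 to 0.15 (RB1, mean effect), −0.41 to 0.10 (RB1, T98G minus U251MG), −0.37 to 0.27 (CDKN2B, T98G), −0.83 to 0.037 (CDKN2D, U87MG), −0.60 to 0.45 (CDKN2D, U251MG), −0.44 to 0.70 (CCND3, U251MG), −0.22 to 0.28 (RBL2, U87MG) and −0.46 to 0.58 (RBL2, U251MG). With the replicate block the mean effect on HACD4 was −0.36 and did not pass (adjusted p = 0.111), nor did CDH5 in U251MG minus the other lines (0.0803), and the block changed no other call of a result given here. The depth limits CDKN2A, MTAP and CCND2, which held at most 25 tags in any library.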
